A study of Mus musculus with 6 samples.

Results

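The lysosome of cultured microglia was described through 44 genes for its hydrolases, its membrane proteins, its proton pump and the TFEB family of transcription factors. Microglia are the resident macrophages of the brain. The genes were chosen by name for their place in the lysosome, and each was represented by the probe set that the array platform assigns to that gene alone, or by the brightest of several. All 44 were measured, of 19938 genes with such a probe set. The platform symbol gave 43 of them, and Tmem55b was found by its gene number under its current symbol, Pip4p1.

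RNA came from 6 primary cultures, 3 fosB-null and 3 wild-type, each on 1 array. The fosB-null cultures came from mice homozygous for the null allele fosBG, bred by intercrossing fosB+/G mice of the N20 generation of backcrossing to C57BL/6J. The wild-type cultures came from C57BL/6J mice, not stated to be littermates. In both groups cortex was taken at 2 days of age, microglia were collected after 10 days in culture, replated for 24 h and harvested without any stated treatment. The allele is carried by every cell of the animal. The labels do not say whether a culture pooled several pups, and they call the arrays biological replicates, numbered 1 to 3 in each group.

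Lysosomes are acidic organelles in which soluble hydrolases break down lipids, glycans, glycosaminoglycans and proteins that a cell has taken up or discarded. The vacuolar proton pump, or V-ATPase, acidifies them, and heavily glycosylated membrane proteins such as LAMP1 and LAMP2 line their inner face. TFEB, TFE3 and MITF are related transcription factors that bind E-box sequences, known as CLEAR elements, near many lysosomal genes. Microglia clear debris and synapses through this compartment, and inherited loss of several of these enzymes or of progranulin causes storage disease or neurodegeneration. FosB belongs to the AP-1 family, which binds another short sequence.

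Some promoters of these genes carry E-box letters and a few carry AP-1 letters, the latter at a share near that of all genes. Stretches that hold them are shown here to make clear which members have which. Promoter windows from RefSeq on build GRCm38.p6, 250 bases before to 50 bases after an annotated start site, were found for 39 of the 44 members, all but Asah1, Atp6v0d2, Atp6v1b2, Atp6v1c1 and Atp6v1h. The letters TCACGTGA, a palindrome that reads alike on both strands, were in the windows of 7 of the 39 members, or 17.9%, against 1.12% of all 27025 genes with a window and 1.53% of the 15563 measured ones. Besides the 5 printed next, Atp6v0d1 and Atp6v1a held it. In these lines, 5′ to 3′ along the gene, the capitals mark that palindrome.
Gla: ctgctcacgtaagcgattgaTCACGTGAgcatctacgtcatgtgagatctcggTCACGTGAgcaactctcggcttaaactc
Cln3: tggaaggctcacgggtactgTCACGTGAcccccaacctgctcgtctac
Mcoln1: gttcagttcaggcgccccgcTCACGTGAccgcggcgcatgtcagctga
Dpp7: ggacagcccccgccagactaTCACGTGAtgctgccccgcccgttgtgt
Tmem55b: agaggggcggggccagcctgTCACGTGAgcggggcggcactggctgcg
The stretches lie at chrX:134601173-134601253, chr7:126583331-126583378, chr8:3500453-3500500, chr2:25356379-25356426 and chr14:50930877-50930924, on the minus strand except for Mcoln1 on the plus strand. Gla, which encodes alpha-galactosidase A, held the palindrome at 2 places.

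The shorter form TCACGTG, or CACGTGA on the other strand, is contained in the palindrome and was found in 13 of the 39 members, or 33.3%, against 4.29% of all genes with a window and 5.36% of the measured ones. Arsa, which encodes arylsulfatase A, had 1 copy and Lamp1 had 4, marked here by capitals.
Arsa: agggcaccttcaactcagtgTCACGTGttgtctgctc
Lamp1: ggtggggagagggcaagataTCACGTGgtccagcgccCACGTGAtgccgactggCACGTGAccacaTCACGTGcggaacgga
They lie at chr15:89477425-89477461 on the minus strand and chr8:13159079-13159160 on the plus strand. The other members with this form but without the palindrome were Gaa, Glb1, Naglu and Sgsh.

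The AP-1 letters TGACTCA, or TGAGTCA on the other strand, were found in 3 of the 39 members, or 7.69%, against 5.95% of all genes with a window and 5.39% of the measured ones. The 3 matches, marked by capitals, were in Glb1, Neu1 and Psap.
Glb1: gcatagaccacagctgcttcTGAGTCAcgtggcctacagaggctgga
Neu1: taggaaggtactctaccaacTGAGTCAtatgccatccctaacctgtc
Psap: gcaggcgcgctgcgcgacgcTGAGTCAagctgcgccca
They lie at chr9:114401005-114401051, chr17:34931085-34931131 and chr10:60277590-60277627, all on the plus strand. In Glb1 the match overlapped the E-box match of that promoter, lying 53 to 47 bases before the start where the E-box match lay 49 to 43 bases before it. The related letters TGACGTCA, a palindrome bound by AP-1 and CREB proteins, were in Gusb and Mitf. That is 5.13% of the members against 2.03% of all genes with a window and 2.72% of the measured ones. These matches are letters in a window, and no binding was measured.

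**Figure D1:**
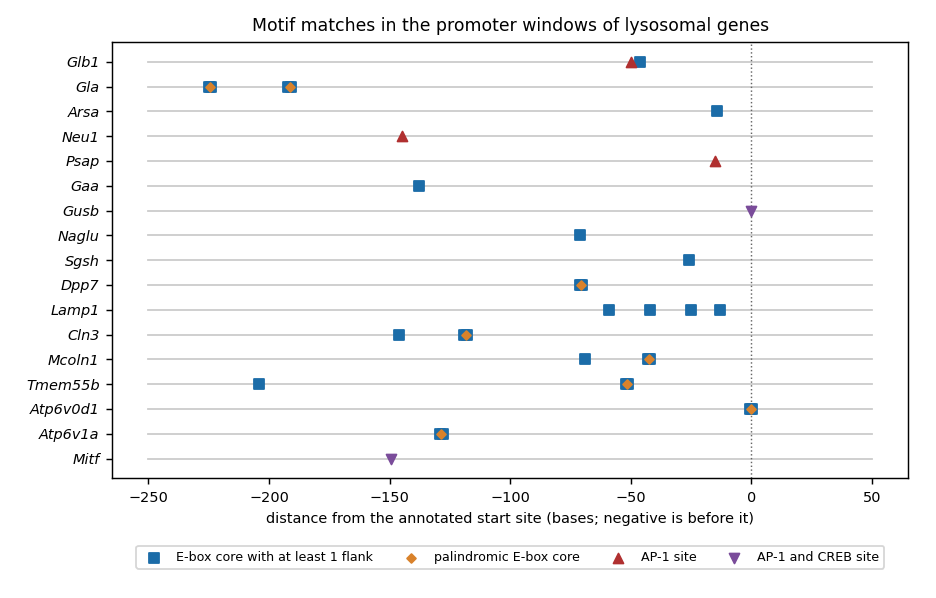
Motif matches in the promoter windows of the 17 members that hold any. The horizontal axis is the distance from the annotated start site in bases, each grey line is the window of 1 gene with all its annotated starts overlaid, squares mark the E-box core with at least 1 flank, diamonds its palindrome, upright triangles the AP-1 site and inverted triangles the AP-1 and CREB site. Lamp1 has 4 squares within 62 bases before its start, and the AP-1 triangle of Glb1 touches its square.

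The deposited values are log2 signals, so a difference of 1 is a doubling, and each difference here is fosB-null minus wild-type. Groups were compared with limma across the 23410 probe sets that have a gene symbol, with Benjamini-Hochberg adjusted p-values and a threshold of 0.05. Array medians ran from 7.76 to 7.92. Arrays with the same number in the 2 groups held exactly equal values in 45.2% to 51.3% of all 35557 probe sets, and other pairs of arrays in at most 3 probe sets. Same-numbered arrays are therefore called pairs 1, 2 and 3, and an exactly equal value is called a tie. The labels name no step that makes such ties, and a tie is not a measurement of equality.

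The cultures carried microglial RNA. All 10 microglial markers were measured, with group means from 8.78 to 13.67, and 8 of them had higher means in fosB-null cultures. The 8 astrocyte markers lay between 6.47 and 8.27, the 8 neuronal between 6.42 and 7.92 and the 9 of fibroblasts and mural cells between 5.30 and 8.62. Markers of the oligodendrocyte lineage reached 10.50 and those of endothelium 10.47. Markers of proliferation were higher in fosB-null cultures for all 11 measured genes (10 after quantile normalization), with list means of 9.34, 9.85 and 10.05 in wild-type and 10.05, 10.66 and 10.06 in fosB-null cultures. Border macrophage markers lay between 6.58 and 13.18. They had 5 of 8 genes higher and 1 lower, with list means from 9.48 to 9.72 in wild-type and from 9.58 to 9.71 in fosB-null cultures. The part of either in the results that follow was not tested. The Fosb probe set, for the targeted gene, had signals of 8.01, 8.14 and 7.92 in wild-type and 7.82, 8.05 and 7.83 in fosB-null cultures. It differed by -0.12 (standard error 0.097), the groups overlapped, and whether it covers the changed stretch of the allele was not checked, since the labels do not give that stretch.

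The lysosomal genes had nearly the same signal in fosB-null and wild-type microglia. None of the 44 passed the adjusted threshold in limma, where 0.00427% of all tested probe sets did, and none reached an unadjusted p under 0.05, where 0.722% did. This fit takes no account of the pairs, whose arrays deviated together. With the array numbers as a replicate block, 1 member, Arsb, had an unadjusted limma p under 0.05, as did 2.31% of tested probe sets. In none of the 44 did the 2 groups fail to overlap, against 1.12% of tested probe sets. Differences ran from -0.13 for Atp6v1d, a V-ATPase subunit, to 0.19 for Arsb, which encodes arylsulfatase B. In 41 of 44 members, or 93.2%, the difference was under 0.1 in either direction, a share close to the 91.8% of all tested probe sets. In bulk RNA from a culture, fewer cells of a type and less RNA per cell cannot be told apart.

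The signals themselves were high. Group means ran from 9.63 to 13.99, and every member was brighter than at least 70.2% of tested probe sets, with a median of 94.7%. Such positions describe probe sets, because the signals of different probe sets do not rank the abundance of their genes. The SD among the 3 arrays of a group had a median of 0.089 in wild-type and 0.094 in fosB-null cultures. The 95% limma interval of the difference reached 0.20 to either side in the median member and 0.45 in the widest. In this fit, which has no block, it lay within a 1.5-fold change in both directions for 44 members, against 94.9% of tested probe sets, and within a 1.2-fold change for 34, or 77.3%, against 49.0%. Most tested probe sets are dimmer than these members, and the share over bright ones alone was not computed. With the replicate block, 43 members lay within a 1.5-fold change, against 96.8% of tested probe sets. The exception was Atp6v0d2, whose interval then ran from -0.998 to 0.941. In the median member the interval with the block was narrower, reaching 0.059 to either side. It lay within a 1.2-fold change for 40 members, against 85.5% of tested probe sets. The intervals rest on 6 arrays whose values are partly tied, so the spread they use may not be that of separate cultures.

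**Figure D2:**
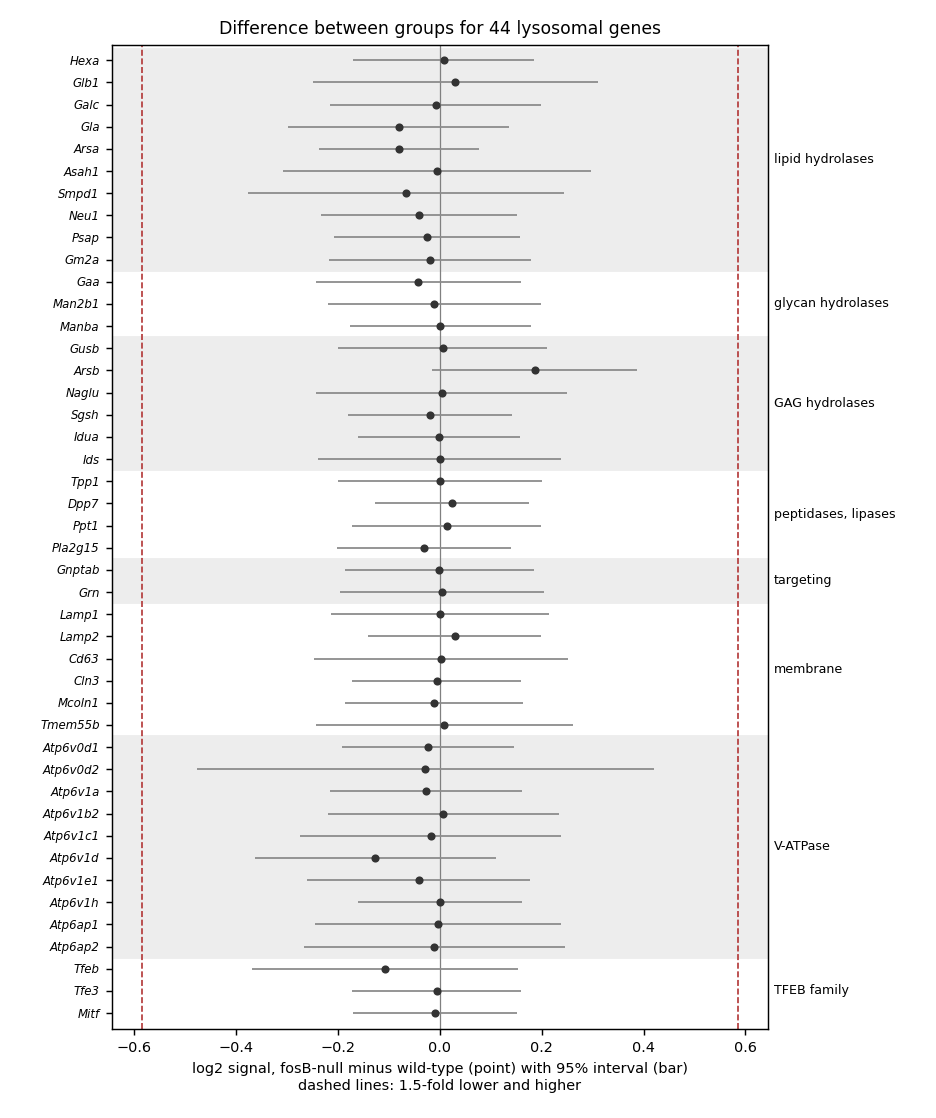
Difference in log2 signal, fosB-null minus wild-type, for the 44 members grouped by role. Points are limma estimates over 3 arrays a group, bars are 95% intervals of the fit without a block and the dashed lines stand at 1.5-fold lower and higher. Every bar lies between the dashed lines, all include 0, and Arsb at 0.19 lies farthest from it.

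More members were lower than higher in fosB-null cultures, as were bright probe sets in general. Of the 44, 28 had a lower mean, against 41.3% of tested probe sets, 13 a higher mean, against 30.9%, and 3 exactly the same, against 27.8%. Among the 43 members with a mean signal over 10, 62.8% were lower and 30.2% higher, and of all tested probe sets that bright 57.0% were lower and 36.0% higher. The median difference over the members was -0.0061, and that of bright probe sets was -0.0064. The member median changed sign with some single arrays left out, which leaves a pair incomplete. The median over all tested probe sets, 0 with every array kept, then moved as well. Omitting wild-type replicate 2 gave 0.016 for the members against 0.028 for all tested probe sets. Omitting fosB-null replicate 3 gave 0.040 against 0.012, and fosB-null replicate 2 gave -0.055 against -0.042. Wild-type replicate 3 gave -0.043 against -0.018, and fosB-null replicate 1 gave -0.023 against 0.014. Wild-type replicate 1 gave -0.0041 against -0.027. The part of the incomplete pairs in these changes was not tested.

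Pair 3 had the lowest and pair 2 the highest signal for most of these genes, as for bright probe sets in general. The mean of pair 3 was the lowest of the 3 pair means in 38 of 44 members, or 86.4%, and that of pair 2 the highest in 31, or 70.5%. Over all tested probe sets the shares were 46.1% and 60.5%, and over those with a mean signal over 10 they were 80.7% and 76.7%. The pair means of a member spanned 0.042 to 0.36, with a median of 0.18.

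**Figure D3:**
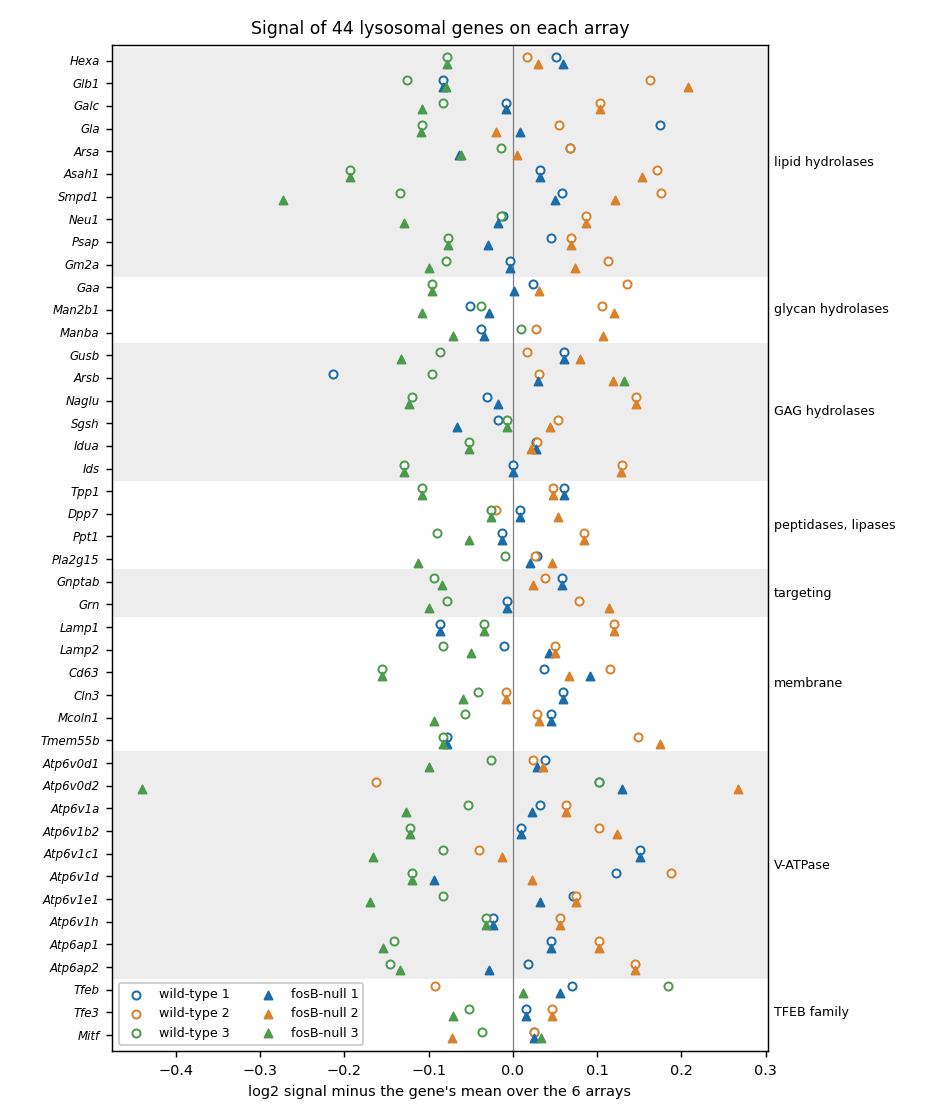
Log2 signal of each member on each array, minus that member's mean over the 6 arrays. Open circles are wild-type, triangles fosB-null, and the colour gives the array number; rows are grouped by role. Same-coloured symbols fall close together in most rows, the green symbols of number 3 have the lowest mean in 38 of 44 rows, and Atp6v0d2 and Arsb stand out.

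Ties were frequent among the members too. Of their 132 pair comparisons, 52, or 39.4%, were exact ties, against 34.4% over tested probe sets with a mean signal over 10. There were 10 members without any tie, 19 with 1, 12 with 2 and 3 with ties in all pairs. Over all tested probe sets, which are mostly dimmer, the shares were 15.0%, 24.8%, 32.4% and 27.8%. Ties fell in pair 1 for 22 members, in pair 2 for 15 and in pair 3 for 15. Where the values did differ, pair 1 gave 8 higher and 14 lower, pair 2 gave 15 higher and 14 lower, and pair 3 gave 7 higher and 22 lower. The excess of lower signals in pair 3 was shared by bright probe sets, of which 44.8% were lower there and 22.1% higher. In 5 members, or 11.4%, every pair differed in 1 direction, against 7.77% of tested probe sets. A probe set with any tie cannot do so, and 22.7% of members had no tie, against 15.0% of tested probe sets. The 2 shares are therefore not on an equal footing. Arsb was higher throughout, as were 2.2% of tested probe sets, and Arsa, Gla, Smpd1 and Tfeb were lower throughout, as were 5.57%.

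**Figure D4:**
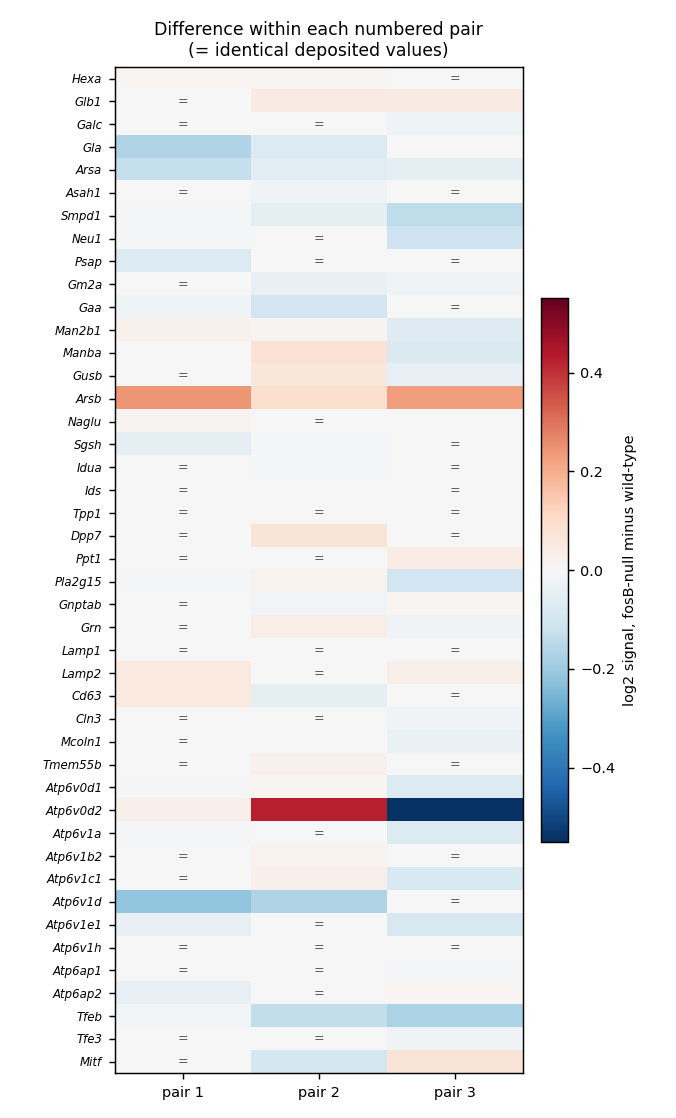
Difference in log2 signal, fosB-null minus wild-type, within each same-numbered pair for the 44 members, with red higher and blue lower in fosB-null. An equals sign marks exactly identical deposited values, which fill 52 of the 132 cells. Arsb is red in all 3 columns, and Atp6v0d2 changes from red in pair 2 at 0.43 to blue in pair 3 at -0.54.

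The enzymes of sphingolipid and glycolipid breakdown, with their activator proteins, were 10 genes, of which 0 passed the test, 8 had lower and 2 higher means. Their median difference was -0.022. Within pairs 1 to 3 the list mean differed by -0.038, -0.019 and -0.030. The count changed with single arrays left out, which leaves a pair incomplete. Of the 10, 8 were higher without fosB-null replicate 3 and 7 without wild-type replicate 2, but all 10 were lower without fosB-null replicate 2 or wild-type replicate 3. Arsa, which removes sulfate from sulfatides of myelin, had signals of 9.74, 9.74 and 9.66 in wild-type arrays 1 to 3 and 9.60, 9.67 and 9.61 in fosB-null cultures. All 3 fosB-null values lay low, but wild-type array 3 fell just below fosB-null array 2, so the groups overlapped. The difference was -0.081 (standard error 0.066), and its unadjusted limma p was 0.263, or 1 after adjustment. With the replicate block the standard error was 0.024 and the unadjusted limma p 0.0597, or 0.674 after adjustment.

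Gla, which removes terminal galactose from glycolipids and is deficient in Fabry disease, had signals of 12.70, 12.58 and 12.42 in wild-type and 12.53, 12.51 and 12.42 in fosB-null cultures. Pair 1 differed most, by -0.17, and pair 3 by only -0.0017. The overall difference was -0.081 (standard error 0.091). With the replicate block its standard error was 0.044 and its unadjusted limma p 0.185. Smpd1, the acid sphingomyelinase gene, had 11.23, 11.35 and 11.04 in wild-type and 11.22, 11.29 and 10.90 in fosB-null cultures. Here pair 3 differed most, by -0.14. The difference of -0.067 had a standard error of 0.13, or 0.035 with the replicate block. The block gave an unadjusted limma p of 0.179, or 0.674 after adjustment.

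Among the other genes of this group the differences stayed between -0.040 and 0.030. Psap, the precursor of the saposins that present lipids to these enzymes, had 14.02, 14.04 and 13.90 in wild-type and 13.94, 14.04 and 13.90 in fosB-null cultures, tied in pairs 2 and 3. Hexa, the alpha subunit of beta-hexosaminidase, had 13.58, 13.55 and 13.45 in wild-type and 13.59, 13.56 and 13.45 in fosB-null cultures. In both genes array 3 was the lowest of its group. Neu1, a sialidase, had 10.38, 10.48 and 10.38 in wild-type and 10.37, 10.48 and 10.26 in fosB-null cultures, where array 3 was the lowest. Glb1, the beta-galactosidase used as a marker of senescence, had 11.71, 11.96 and 11.67 in wild-type and 11.71, 12.001 and 11.71 in fosB-null cultures, a difference of 0.030. Galc, which degrades the myelin lipid galactosylceramide, differed by -0.0083, the acid ceramidase gene Asah1 by -0.0058 and the GM2 activator gene Gm2a by -0.020.

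The 6 hydrolases of glycosaminoglycans held the largest difference of all members. Arsb, which removes sulfate from dermatan and chondroitin sulfate, had signals of 12.58, 12.82 and 12.69 in wild-type and 12.82, 12.91 and 12.92 in fosB-null cultures. Wild-type array 1 was the lowest and wild-type array 2 lay just above fosB-null array 1, so the groups overlapped narrowly. The pairs differed by 0.24, 0.088 and 0.23. The group means were 12.70 ± 0.12 and 12.88 ± 0.056 (SD, 3 arrays each), a difference of 0.19 (standard error 0.085) with a 95% interval from -0.015 to 0.39. This is a 1.14-fold higher signal, and it did not pass the limma test, where its unadjusted p was 0.0649, or 1 after adjustment.

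Arsb has another probe set of its own, which gave a smaller difference in the same direction. Its signals were 12.25, 12.47 and 12.33 in wild-type and 12.43, 12.50 and 12.47 in fosB-null cultures, and its difference was 0.12 (standard error 0.079). The pairs differed by 0.18, 0.033 and 0.13, so both probe sets were higher in all 3 pairs. When array numbers entered as a replicate block, the unadjusted limma p of the brighter probe set was 0.0413 and its adjusted p 0.674. The unadjusted p was 0.0256 after median centring and 0.0437 with an intensity trend. It was 0.0788 after quantile normalization, 0.0536 without dim probe sets, 0.0771 with all probe sets tested and 0.105 for the mean over both Arsb probe sets, whose difference was 0.15. It lay between 0.0298 and 0.228 when single arrays were left out, being lowest without wild-type replicate 2. Under the 13 alternatives tried the adjusted p of Arsb stayed at 0.674 or above.

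The other 5 glycosaminoglycan hydrolases lay between -0.019 and 0.0056. They were Gusb (beta-glucuronidase), Naglu, Sgsh, Idua and Ids, which take part in heparan sulfate breakdown and are each deficient in a mucopolysaccharidosis. Idua and Ids were tied in pairs 1 and 3 and differed in pair 2 by -0.0068 and -0.0021. The enzymes of glycogen and glycoprotein breakdown were as close: Gaa, the acid alpha-glucosidase deficient in Pompe disease, differed by -0.042, and the mannosidase genes Man2b1 and Manba by -0.011 and 0.0006.

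Among the peptidases and lipid-cleaving enzymes, Tpp1, the tripeptidyl peptidase lost in a childhood form of neuronal ceroid lipofuscinosis, was tied in all 3 pairs, at 13.10, 13.09 and 12.94. Dpp7, a dipeptidyl peptidase, had 12.02, 11.99 and 11.98 in wild-type and 12.02, 12.06 and 11.98 in fosB-null cultures. Its difference of 0.024 came wholly from pair 2. Ppt1, the palmitoyl-protein thioesterase gene, had 12.68, 12.77 and 12.60 in wild-type and 12.68, 12.77 and 12.64 in fosB-null cultures, and its difference of 0.013 came wholly from pair 3. Pla2g15, a lysosomal phospholipase, differed by -0.031 and none of these 4 genes passed the test.

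Grn, the progranulin gene, had signals of 13.75, 13.84 and 13.68 in wild-type and 13.75, 13.87 and 13.66 in fosB-null cultures. The groups overlapped, with a difference of 0.0049 and a 95% interval from -0.20 to 0.21. Gnptab, which encodes the enzyme that tags hydrolases with mannose 6-phosphate for delivery, differed by -0.0014.

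The 6 membrane proteins differed by at most 0.029 in either direction. Lamp1 was tied in every pair, at 13.39, 13.60 and 13.44. Lamp2, which also serves chaperone-mediated autophagy, had 13.31, 13.37 and 13.24 in wild-type and 13.36, 13.37 and 13.27 in fosB-null cultures, the largest difference of the group at 0.029 (standard error 0.072). The tetraspanin gene Cd63 differed by 0.0015, from 0.054 in pair 1 and -0.049 in pair 2. Cln3, whose loss causes juvenile neuronal ceroid lipofuscinosis, differed by -0.0059, the calcium channel gene Mcoln1 by -0.011 and Tmem55b, a phosphoinositide phosphatase gene regulated by TFEB, by 0.0085.

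Of the 10 genes of the proton pump 0 passed the test, 8 had lower means, 1 a higher mean and 1, Atp6v1h, was tied throughout at 10.42, 10.50 and 10.41. Their median difference was -0.021. With a pair left incomplete, 9 of the 10 were higher without fosB-null replicate 3 and all 10 were lower without fosB-null replicate 2. Within pairs 1 to 3 the list mean differed by -0.029, 0.032 and -0.086, while the median of the 10 differences was -0.0044, 0 and -0.043. The means include Atp6v0d2, described below, whose pairs differed by 0.027, 0.43 and -0.54. The list means were 12.28, 12.28 and 12.15 in wild-type and 12.25, 12.31 and 12.06 in fosB-null cultures. Atp6v1d, which encodes subunit D of the rotating stalk, had 11.999, 12.06 and 11.76 in wild-type and 11.78, 11.90 and 11.76 in fosB-null cultures. Wild-type arrays 1 and 2 were high, while pair 3 was an exact tie at the lowest value of its group. The difference of -0.13 had a standard error of 0.10 and an unadjusted limma p of 0.243, or 1 after adjustment. With the replicate block these were 0.060 and 0.149, or 0.674 after adjustment. Leaving out wild-type replicate 3 gave -0.22 at an unadjusted limma p of 0.0477, or 1 after adjustment. Leaving out wild-type replicate 2 gave -0.065, and the other single arrays gave values between these.

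Atp6v0d2 varied more than any other member, and is singled out here after its values were seen. It encodes the d2 subunit of the membrane sector, an isoform prominent in macrophages and osteoclasts. Its signals were 12.19, 11.93 and 12.19 in wild-type and 12.22, 12.36 and 11.65 in fosB-null cultures. The highest and the lowest of the 6 values were both fosB-null. The pairs differed by 0.027, 0.43 and -0.54, a span of 0.97, and 0.402% of all tested probe sets had a span at least as wide. The group difference was -0.029 (standard error 0.19). Its paralog Atp6v0d1, the widely expressed d1 subunit, spanned 12.47 to 12.60 over all 6 arrays and differed by -0.024. The cytosolic subunit genes Atp6v1a, Atp6v1b2, Atp6v1c1 and Atp6v1e1 differed by -0.028, 0.0070, -0.018 and -0.042, and the accessory protein genes Atp6ap1 and Atp6ap2 by -0.0042 and -0.011.

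The transcription factors of the TFEB family did not pass the test either, and all 3 had slightly lower means, except that Tfe3 was higher, at 0.0033, after quantile normalization. This direction also changed with single arrays left out, which leaves a pair incomplete. Then 2 of the 3, Tfe3 and Mitf, were higher without wild-type replicate 2. Only 1 was higher without wild-type replicate 1, fosB-null replicate 2 or fosB-null replicate 3. Within pairs 1 to 3 the list mean differed by -0.005, -0.078 and -0.040. Tfeb had signals of 10.24, 10.08 and 10.36 in wild-type and 10.23, 9.94 and 10.18 in fosB-null cultures. It was lower in each pair, by -0.015, -0.14 and -0.17, but the groups overlapped widely. The difference of -0.11 had a standard error of 0.11 and an unadjusted limma p of 0.359, or 1 after adjustment. With the replicate block these were 0.044 and 0.114, or 0.674 after adjustment. Tfe3 had 12.08, 12.11 and 12.01 in wild-type and 12.08, 12.11 and 11.99 in fosB-null cultures, tied in pairs 1 and 2. Mitf had 11.95, 11.95 and 11.89 in wild-type and 11.95, 11.86 and 11.96 in fosB-null cultures, with pairs 2 and 3 in opposite directions. Another Mitf probe set was dim, with group means of 5.31 ± 1.21 and 5.15 ± 0.87 (SD, 3 arrays each), and carries little information. Averaging both probe sets moved the Mitf difference from -0.0092 to -0.083.

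The differences of members with and without the E-box letters in their promoters are given side by side, as a description. The 13 with the shorter form had a median difference of -0.011, with 8 lower, 4 higher and 1 at 0, and ran from -0.081 to 0.030. The 26 without it had a median of -0.0052, with 17 lower, 8 higher and 1 at 0. Of the 3 members with the AP-1 letters, Neu1 differed by -0.040, Psap by -0.025 and Glb1 by 0.030. The only gene called across the array was the C5a receptor gene C5ar2, which is no member. Its difference was -1.80, with an adjusted limma p of 0.00162, or 0.539 with the replicate block, which calls no gene. Without wild-type replicate 3, 2 genes were called. Of the 44 members only Smpd1, Tpp1 and Cln3 lie on the same chromosome, 7, and 0 are among the 100 nearest measured genes on either side of Fosb.

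Other genes of the pathway had 0 members past the adjusted threshold, and 0 at an unadjusted limma p under 0.05, in each of 4 lists. Of 12 other V-ATPase genes 9 were lower, 1 higher and 2 tied throughout. Those with the lowest p were Atp6v1g1, a stalk subunit gene, at -0.094 (standard error 0.12), and Tcirg1, the a3 subunit gene, at -0.070 with 0.089. Of 11 other lysosomal enzymes 6 were lower, 4 higher and 1 tied, but 5 lower and 6 higher after quantile normalization, led by Hgsnat, an acetyltransferase of heparan sulfate breakdown, at 0.094 and the hyaluronidase gene Hyal2 at -0.10. Of 23 other membrane, transport and targeting genes 12 were lower, 7 higher and 4 tied, led by Laptm4b at -0.11 and Gnptg, the gamma subunit of the mannose 6-phosphate tagging enzyme, at -0.094.

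The fourth of these lists holds 16 genes of nutrient sensing at the lysosome, where mTORC1 is activated and TFEB is held in the cytoplasm. Of these, 11 were lower, 4 higher and 1, Mtor, was tied throughout. Rragd, a small GTPase gene, had 9.07, 8.99 and 9.08 in wild-type and 9.07, 9.04 and 8.65 in fosB-null cultures, so its difference of -0.13 came from fosB-null array 3. Lamtor1, which anchors the Ragulator complex, had 11.55, 11.57 and 11.39 in wild-type and 11.54, 11.44 and 11.24 in fosB-null cultures, a difference of -0.099 (standard error 0.099). All 3 pairs of Lamtor1 were lower, and it did not pass the test, with an unadjusted limma p of 0.353.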

How the data were processed

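RNA of 6 microglial cultures was measured on Affymetrix whole-transcript arrays, with 100 ng of total RNA amplified per array, per the labels. The submitters' processing notes name Affymetrix Expression Console, without its version, summary method or normalization. The deposited values, 1 per probe set and array, were taken as log2 signals from their range. Of 35557 probe sets the platform annotation gave 1 symbol to 21789, several to 1621 and none to 12147. The 23410 with a symbol were tested.

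The test was limma 3.58.1 under R 4.3.3, two-sided, by lmFit and eBayes without block or filter, with Benjamini-Hochberg adjustment. The code was tried on simulated data with independent arrays. Those data had no ties and no deviations shared by same-numbered arrays, so they cannot show how the test behaves on the deposited values. A block for the replicate number was tried as well, since same-numbered arrays deviated together from their groups: the deviations correlated at 0.91, 0.82 and 0.82, or at 0.72, 0.33 and 0.32 over the 3520 tested probe sets without a tie. No label explains the numbers, so the pairing comes from the values. P-values measure only the spread between these arrays, and their number limits the precision.

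The members, lists and tests were chosen with earlier results of these data known. Members given with every array were up to 5 per direction with the lowest p, those past a threshold or without overlap, the 3 brightest and 3 dimmest and the TFEB family, and from other pathway lists the 2 genes with the lowest p. No samples were left out.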

Additional observations from a re-analysis of the deposited data

How the results depend on the processing

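No lysosomal gene passed the adjusted threshold under any of 13 alternatives. The 13 alternatives were quantile normalization, median centring, leaving out the dimmest 40% of probe sets, testing all 35557 probe sets, an intensity trend, the replicate block, leaving out each array and averaging a gene's probe sets. The number of genes called over all probe sets was 1, and 0 with the replicate block, where C5ar2 kept its difference of -1.80 and whose prior degrees of freedom fell to 0.358 from 2.84. It was 1 to 2 with single arrays left out, 2 being without wild-type replicate 3. No member had an unadjusted limma p under 0.05 except as follows. Arsb did with median centring, the intensity trend or the replicate block, where 1.04%, 0.906% and 2.31% of tested probe sets did. With single arrays left out, Arsb did without wild-type replicate 2, against 0.47% of tested probe sets. Atp6v1d did without wild-type replicate 3, against 1.54%. The median member difference of -0.0061 was -0.0052 after quantile normalization and -0.0068 after median centring, and ran from -0.055 to 0.040 with single arrays left out. The replicate block left every difference as it was. Of 208 values of the 16 named members under alternatives, 184 kept their direction and side of the threshold and 24 turned direction. Quantile normalization turned Grn to -0.0012, Hexa to -0.0081 and Tfe3 to 0.0033. With single arrays left out, Glb1 ran from -0.066 to 0.12, Grn from -0.051 to 0.056, Hexa from -0.030 to 0.048, Lamp2 from -0.0056 to 0.061, Mitf from -0.030 to 0.025, Neu1 from -0.094 to 0.014, Ppt1 from -0.029 to 0.058, Psap from -0.069 to 0.0073, Smpd1 from -0.15 to 0.053 and Tfe3 from -0.034 to 0.027. Arsb, Atp6v1d, Arsa, Gla, Tfeb and Dpp7 kept their direction under all 13, but not their size. With single arrays left out, Arsb ran from 0.13 to 0.25, Atp6v1d from -0.22 to -0.065, Arsa from -0.11 to -0.067, Gla from -0.16 to -0.014, Tfeb from -0.18 to -0.020 and Dpp7 from 0.0039 to 0.043. Leaving out 1 array leaves its pair incomplete, and the median over all tested probe sets then ran from -0.042 to 0.028. The cause of these turns was not tested.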
